A study of Mus musculus with 5 samples.

Results

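The histone cluster genes are for the most part the replication-dependent histone genes that lie side by side in the mouse genome and carry the older symbols Hist1, Hist2, Hist3 and Hist4. They were taken as every entry of the gene table whose symbol begins with Hist, a cluster number from 1 to 4 and the letter h, which gave 60 of 28642 entries. By histone type these were 6 H1, 15 H2A, 17 H2B, 10 H3 and 12 H4 genes, and by cluster 49 belonged to Hist1, 7 to Hist2, 3 to Hist3 and 1 to Hist4. Hist3h2bb, counted with H2B, is annotated as a transcribed pseudogene. The filter for a test was passed by 28 of the 60 (4 H1 genes and 6 of each core histone), among 10878 entries tested in all. Its level cutoff had to be reached in only 1 library, since the smallest group holds 1 library. Total counts were as low as 22.1 among the 28 and as high as 52.5 among the others, so the 28 are not simply the best-read genes. The symbol rule used no value of these libraries, but the family was chosen with earlier results of these data known.

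RNA came from ES-D3, a line of mouse embryonic stem cells grown on irradiated feeder cells with leukemia inhibitory factor, and it was read one molecule at a time on the Helicos platform without amplification. All cells received a lentiviral short hairpin and puromycin selection, and feeder cells were thinned out by a brief replating before extraction. The tested groups were 2 libraries with hairpins against Trim28 (replicates 1 and 2, a different hairpin each) and 2 libraries with hairpins against Wtx (again a different hairpin each). The control was a single library with a hairpin against GFP, so each hairpin stands in 1 library and every comparison with the control uses the same control library.

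Trim28, a corepressor brought to DNA by KRAB zinc finger proteins, was at 63.5 and 48.4 CPM (counts scaled to a common library size) in the shTrim28 libraries, at 400 and 396 CPM in the libraries labelled shWtx, and at 783 CPM in the control. Fam123b, the table's name for Wtx, was at 19.3 and 30.5 CPM in shTrim28, at 25.7 and 16.7 CPM in the libraries labelled shWtx and at 15.2 CPM in the control, so its RNA does not separate the libraries labelled shWtx from the control. Library totals were 280614 and 1901563 estimated counts in shTrim28, 763130 and 377794 in the libraries labelled shWtx and 586408 in the control. In shTrim28 replicate 1, the shallowest library, a single count was worth 3.63 CPM and 33 of the 60 genes had fewer than 3 counts, whereas in shTrim28 replicate 2 a count was worth 0.561 CPM and 6 genes had fewer than 3. The summed level of 12 embryonic stem cell markers was 1966 and 2018 CPM in shTrim28, 3081 and 3405 CPM in the libraries labelled shWtx and 6404 CPM in the control. The summed level of 14 fibroblast markers was 4124 and 4832 CPM in shTrim28, 1973 and 2300 CPM in the libraries labelled shWtx and 2028 CPM in the control, with Lum at 0 in shTrim28 replicate 1, shWtx replicate 2 and the control. Odorant, taste and vomeronasal receptor genes, which stem cells are not known to use and which here gauge stray reads, took 1488 and 1013 CPM of the table's total in shTrim28, 2726 and 2471 CPM in the libraries labelled shWtx and 264 CPM in the control.

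A dividing cell must double its histones when it copies its DNA. The cluster genes supply the bulk of them in S phase: the core histones H2A, H2B, H3 and H4 form the nucleosome, and the linker histone H1 binds where DNA enters and leaves it. Their mRNAs usually have no introns and end in a conserved stem-loop instead of a poly(A) tail, and the stem-loop binding protein Slbp reads that hairpin. Many histone genes outside the clusters, such as H3f3a and H2afz, make replacement histones at any stage of the cell cycle, from ordinary polyadenylated mRNAs. This does not hold for every such gene.

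The stem-loop is shown because it is the shared 3' end element of the family. Annotated transcripts were searched for 3 set spellings that differ in the stem or in the loop, and 34 of the 60 genes held 1. Other spellings were not searched for. Some annotated transcripts are as short as 312 bases and may end before the element, so a gene without a match need not lack a stem-loop. The capitals mark the 4-base loop. The H4 spelling was seen in 6 H4 genes and in no other type. The most common spelling was that of 3 H1, 7 H2A, 8 H2B and 4 H3 genes. The rarest loop was that of 1 H1, 2 H2B and 3 H3 genes.
common form, 22 genes: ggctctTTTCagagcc
H4 form, 6 genes: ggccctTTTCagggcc
TTTA-loop form, 6 genes: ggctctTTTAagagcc

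Promoters of 54 of the 60 genes were matched in RefSeq (build GRCm38.p6), each covering 250 bases before and 50 after the annotated start. On either strand, TATAAA, the core of the TATA box, stood in 33 of 54 (61.1%), against 13.6% of all 32851 promoters. CCAAT, the letters bound by NF-Y, stood in 46 of 54 (85.2%), against 37.4% of all. All 6 H1, 15 H2A, 14 H2B and 8 H3 promoters held CCAAT, but only 3 of 11 H4 promoters did. The octamer ATTTGCAT, the site read by the Oct proteins, stood in 14 of 54 (25.9%), against 1.74% of all, and these were 7 of 15 H2A and 7 of 14 H2B promoters with none from H1, H3 or H4. Some H2A and H2B genes, such as Hist1h2ae and Hist1h2bg, lie so close that their promoters may overlap, and the same octamer may then be counted for both. No matches of different motifs overlapped in the histone promoters, and a match says only that the letters are there.

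The promoters of 3 genes are shown: Hist1h2ao, the gene with the most reads and lower in the libraries labelled shWtx, Hist1h4d, the H4 gene that differed in 2 comparisons, and Hist1h2ac, as an H2A promoter with the octamer. Capitals mark the motifs just named, on either strand. In Hist1h4d and Hist1h2ac the TATAAA letters begin 32 bases before the annotated start, and in Hist1h2ac the octamer begins 130 bases before it.
Hist1h2ao (H2ac23), chr13:21810117-21810416, plus strand: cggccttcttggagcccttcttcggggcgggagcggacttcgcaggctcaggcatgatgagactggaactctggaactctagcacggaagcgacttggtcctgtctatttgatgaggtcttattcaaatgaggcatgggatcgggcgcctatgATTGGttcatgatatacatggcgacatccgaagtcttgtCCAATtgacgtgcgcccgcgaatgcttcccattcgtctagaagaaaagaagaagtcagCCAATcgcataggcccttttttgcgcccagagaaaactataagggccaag
Hist1h4d (H4c4), chr13:23581318-23581617, plus strand: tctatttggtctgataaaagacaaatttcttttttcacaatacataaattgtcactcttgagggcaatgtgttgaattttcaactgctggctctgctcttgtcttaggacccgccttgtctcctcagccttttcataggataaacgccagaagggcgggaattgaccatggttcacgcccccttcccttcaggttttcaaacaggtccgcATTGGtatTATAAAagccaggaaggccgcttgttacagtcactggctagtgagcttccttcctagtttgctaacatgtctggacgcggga
Hist1h2ac (H2ac6), chr13:23683910-23684209, minus strand: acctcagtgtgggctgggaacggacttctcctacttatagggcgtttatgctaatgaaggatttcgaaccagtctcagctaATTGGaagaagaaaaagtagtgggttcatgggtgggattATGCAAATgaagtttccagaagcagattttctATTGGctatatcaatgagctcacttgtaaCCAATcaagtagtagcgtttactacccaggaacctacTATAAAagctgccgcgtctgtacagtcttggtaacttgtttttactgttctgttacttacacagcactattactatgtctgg

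Together the 60 genes made up a small share of the RNA counted: 0.114% and 0.169% of the table in shTrim28, 0.104% and 0.117% in the libraries labelled shWtx and 0.161% in the control. Their summed level was 1163 CPM (exact 95% Poisson interval 1041 to 1299) and 1804 CPM (1742 to 1868) in shTrim28, 1102 CPM (1027 to 1181) and 1215 CPM (1104 to 1333) in the libraries labelled shWtx, and 1691 CPM (1584 to 1802) in the control. Both libraries labelled shWtx lay under the control beyond counting error, while the shTrim28 libraries stood on either side of it, replicate 1 beside the libraries labelled shWtx and replicate 2 above the control. On the log2 scale the difference of mean summed level from the control was -0.19 for shTrim28, where the pair itself had an SD of 0.45, and -0.55 for the libraries labelled shWtx, whose SD was 0.10 (n = 2 each, 1 control). These sums are a description with no test. Since these are bulk samples, fewer cells in S phase and less histone RNA per cell cannot be told apart. Whether priming was on poly(A) is not given, so the part of the histone mRNA that was read is also unknown.

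The H2A genes set much of that sum. H2A summed to 467 and 811 CPM in shTrim28, to 427 and 543 CPM in the libraries labelled shWtx and to 778 CPM in the control. H4 followed with 215 and 446 CPM in shTrim28, 267 and 255 CPM in the libraries labelled shWtx and 376 CPM in the control. H3 summed to 159.8 and 255 CPM in shTrim28, to 144 and 162 CPM in the libraries labelled shWtx and to 241 CPM in the control. For these 3 types shTrim28 replicate 1 and both libraries labelled shWtx lay below shTrim28 replicate 2 and the control. H2B and H1 had no such order: H2B summed to 199 and 155 CPM in shTrim28, to 149 and 164 CPM in the libraries labelled shWtx and to 174 CPM in the control. H1 summed to 123 and 137 CPM in shTrim28, to 116 and 89.5 CPM in the libraries labelled shWtx and to 122 CPM in the control, with counting intervals that overlap throughout.

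**Figure D1:**
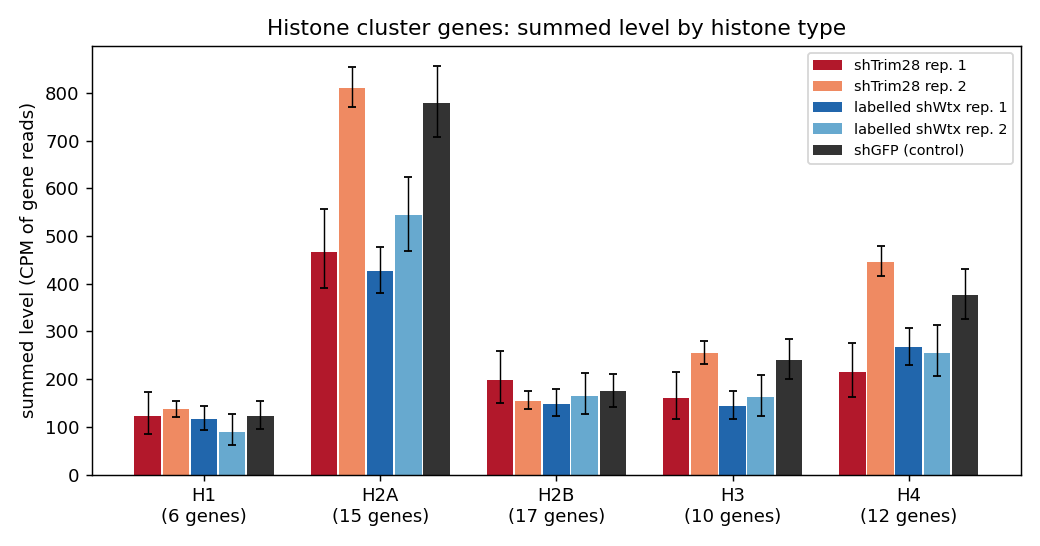
Summed level of the 60 histone cluster genes by histone type (CPM of gene reads, vertical axis) in each library, with exact 95% Poisson intervals for counting error. H2A reaches 811 CPM in shTrim28 replicate 2 and 778 CPM in the control but 467 CPM or less in shTrim28 replicate 1 and labelled shWtx replicate 1, while the H1 and H2B bars stay close together.

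A single gene, Hist1h2ao, which encodes a canonical H2A, carried much of the signal. It held 26.9% and 34.1% of the reads of all 60 genes in shTrim28, 24.5% and 28.8% in the libraries labelled shWtx and 37.1% in the control. Without Hist1h2ao the H2A genes summed to 154 and 196 CPM in shTrim28, 157 and 194 CPM in the libraries labelled shWtx and 151 CPM in the control, so that the gap seen for H2A was no longer there. All other genes together then summed to 851 and 1189 CPM in shTrim28, 832 and 865 CPM in the libraries labelled shWtx and 1064 CPM in the control. Per kilobase of the RefSeq gene span Hist1h2ao averaged 788 CPM over the 5 libraries, followed by Hist1h4m at 282, Hist2h4 at 197, Hist1h3d at 168 and Hist1h2ae at 112, against a median of 36.1 over the 28 genes tested. Below Hist1h4m this order depends on the length: per kilobase of the GENCODE transcript, a length added after seeing the data, the values were 906 for Hist1h2ao, 284 for Hist1h4m, 88.6 for Hist1h2ae, 67.8 for Hist1h3d and 46.4 for Hist2h4, against a median of 28.25.

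How far reads can be given to 1 histone gene differs by type. Of all 34-base windows in a gene's transcript, the median share also found in another annotated gene was 2.93% for H1 (range 0 to 34.3%), 67.8% for H2A (10.1 to 93.7%), 55.5% for H2B (2.05 to 88.5%), 60.1% for H3 (27.1 to 94.2%) and 40.2% for H4 (2.00 to 90.8%). For Hist1h2ao the share was 93.7%, chiefly with its neighbour copy Hist1h2ap, and for Hist1h4m it was 90.8%, chiefly with Hist1h4n, so these levels are those of near-identical copies, merged or split in an unknown way. Hist1h4d at 14.2%, Hist2h4 at 2.00% and the H1 genes Hist1h1b at 2.68%, Hist1h1d at 3.18% and Hist1h1c at 10.9% had lower shares. All these shares are of the GENCODE transcript, whereas reads were aligned to RefSeq. That transcript is longer than the RefSeq span for Hist1h4d (1138 against 402 bases), Hist2h4 (1630 against 384), Hist1h1d (7425 against 776) and Hist1h1c (1560 against 725). For Hist1h1b it is not (743 against 794). Over the RefSeq span the share was not taken, and it may be higher where the transcript is longer.

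**Figure D2:**
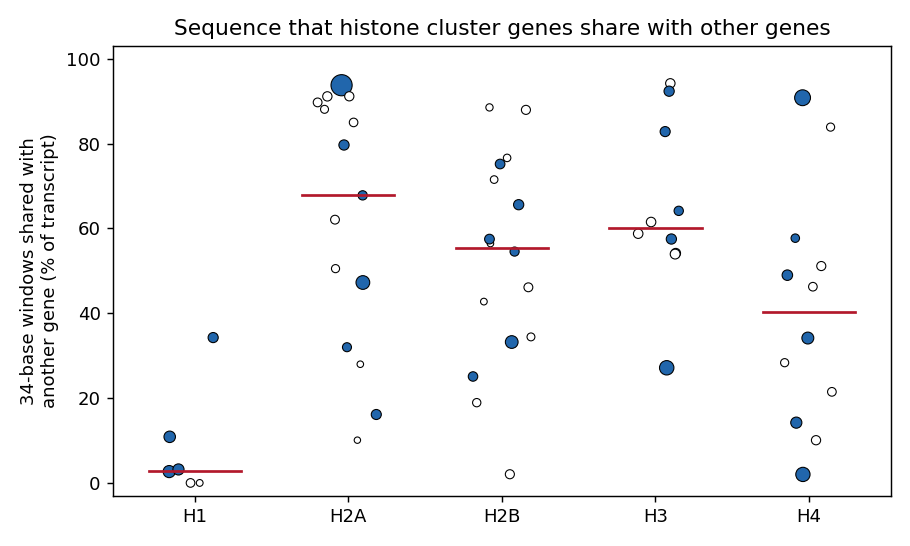
Share of each gene's 34-base transcript windows that also occur in another annotated gene (percent, vertical axis), by histone type. Filled points are the 28 genes tested, open points the others, point area grows with the square root of total counts and red lines are medians; Hist1h2ao is the large point at 93.7% and the H1 genes sit at or under 34.3%.

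Between shTrim28 and the control, none of the 28 tested genes passed the threshold (edgeR's quasi-likelihood test, adjusted p under 0.05), against 6.53% of all genes tested, 4.27% higher (464 genes) and 2.26% lower (246). The DESeq2 Wald test gave an adjusted p to 4 of the 28 and called 0, against 9.11% of all genes it gave one, and 3 of the 28 (10.7%) had an unadjusted p under 0.05 in edgeR, against 19.4% of all genes tested: Hist1h2ae, Hist1h2bc and Hist1h4m. The members' median log2 fold change was -0.28, against 0.16 over all genes tested and -0.06 over the 1517 tested genes with transcripts under 1000 bases. By type the median was 0.16 for H1, 0.39 for H2A, -0.71 for H2B, -0.62 for H3 and -0.35 for H4. Without shTrim28 replicate 2 the H2A median turned to -0.15, and those of H2B, H3 and H4 became -0.17, -1.23 and -0.59. Of the 28, both shTrim28 libraries lay above the control for 8 and below it for 13, where the shares over all genes tested were 44.8% and 31.1%. Hist1h3e, Hist1h3f, Hist2h3c2, Hist1h4b and Hist2h2bb reached the cutoff of the test filter only in the control, which favours values below the control. Hist1h1e, Hist1h2ac, Hist1h2ak, Hist1h2bg and Hist3h2a reached it only outside the control, which favours values above the control. Over the 60 genes, tested or not, both shTrim28 libraries lay above for 15 and below for 25, against 35.2% and 21.7% of all entries with a count. Such entries include low rows that did not pass the filter, and the part of stray reads in them was not tested.

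Those 3 genes had values above the control in shTrim28 without passing the test. Hist1h2bc, an H2B gene, was at 66.6 and 59.0 CPM in shTrim28 and at 26.4 CPM in the control, a log2 fold change of 1.17 (SE 0.43, edgeR adjusted p = 0.108). Hist1h2ae, an H2A gene, was at 48.7 and 97.5 CPM in shTrim28 and at 40.3 CPM in the control, a log2 fold change of 1.05 (SE 0.42, edgeR adjusted p = 0.155). Hist1h4m, an H4 gene, was at 88.5 and 197 CPM in shTrim28 and at 81.0 CPM in the control, a log2 fold change of 0.95 (SE 0.38, edgeR adjusted p = 0.147). In each case both shTrim28 libraries were above the control, but replicate 2 was far above replicate 1 for Hist1h2ae and Hist1h4m. Without shTrim28 replicate 1 both of these passed the threshold, the only 2 of the 28 to do so, against 9.85% of all genes tested.

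For Hist1h2ao, Hist2h4, Hist1h1b and Hist1h3d replicate 2 of shTrim28 was again above replicate 1. Hist1h2ao was at 312 CPM in replicate 1 and 615 CPM in replicate 2 of shTrim28, against 627 CPM in the control (log2 fold change -0.38, SE 0.30). Hist2h4, an H4 gene of the Hist2 cluster, was at 14.9 CPM in replicate 1, a value that rests on 4.12 estimated counts, and at 102 CPM in replicate 2, against 125 CPM in the control. The linker histone gene Hist1h1b was at 22.4 and 51.3 CPM in shTrim28, against 40.3 CPM in the control. Hist1h3d, the leading H3 gene, was at 75.2 and 112 CPM in shTrim28, against 87.6 CPM in the control. Both shTrim28 libraries lay below the control for Hist1h2ao and Hist2h4, and on either side of it for Hist1h1b and Hist1h3d.

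**Figure D3:**
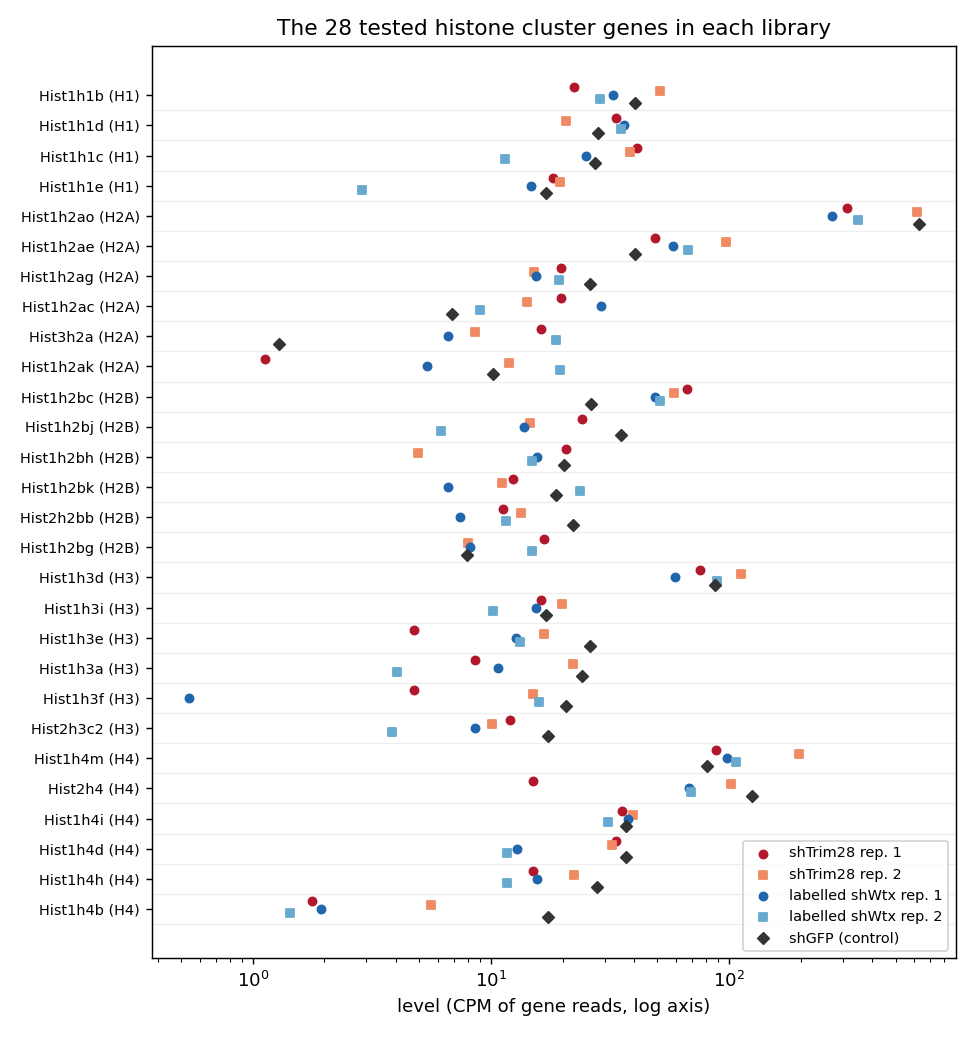
Level of each of the 28 tested histone cluster genes (CPM of gene reads, log axis) in each of the 5 libraries, grouped by histone type and ordered by mean level. Hist1h2ao runs from 270.1 to 627 CPM, most other genes lie under 100 CPM, and Hist1h4d shows both libraries labelled shWtx (12.9 and 11.7 CPM) apart from the other 3.

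Between the libraries labelled shWtx and the control, 2 of the 28 tested genes passed the threshold and both were lower, against 15.8% of all genes tested in either direction, 10.9% higher and 4.94% lower. The DESeq2 Wald test gave an adjusted p to 11 of the 28 and called 0, against 7.23% of all genes it gave one, and 5 of the 28 (17.9%) had an unadjusted p under 0.05 in edgeR, against 30.4% of all genes tested. Hist1h2ao fell to 270.1 and 349 CPM in the libraries labelled shWtx, against 627 CPM in the control, a log2 fold change of -1.03 (SE 0.31, edgeR adjusted p = 0.023). Hist1h4d fell to 12.9 and 11.7 CPM in the libraries labelled shWtx, against 37.0 CPM in the control, a log2 fold change of -1.64 (SE 0.54, edgeR adjusted p = 0.038). Hist1h4d rests on 9.32 and 4.24 estimated counts in the libraries labelled shWtx and 20.7 in the control. The Hist1h2ao call was lost without labelled shWtx replicate 1 (log2 fold change -0.84) and without shTrim28 replicate 2 (-1.04). The Hist1h4d call was lost without either library labelled shWtx (-1.76 and -1.57) and without shTrim28 replicate 2 (-1.63). Both calls were also lost, at folds of like size, with only those groups fitted (log2 fold change -1.03 and edgeR adjusted p = 0.056 for Hist1h2ao, -1.63 and 0.075 for Hist1h4d) and with no filter on low counts (-1.14 and 0.089, -1.76 and 0.086). With the stray level subtracted Hist1h4d was at -1.50 and no longer passed (edgeR adjusted p = 0.078).

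For labelled shWtx over control the members had a median log2 fold change of -0.45, against 0.06 over all genes tested and -0.51 over the tested genes with transcripts under 1000 bases, so that genes as short as histone genes had a like median. All 6 tested H3 genes had values below 0, with a median of -1.27, and the medians were -0.97 for H4, -0.45 for H1, -0.40 for H2B and 0.33 for H2A. The test filter favours low values here for Hist1h3e, Hist1h3f and Hist2h3c2 among the H3 genes, and for Hist1h4b and Hist2h2bb. The genes named above that reached its cutoff only outside the control are favoured the other way. With no filter the medians were -0.83 for H3, with 0 of 10 genes above 0, and -1.25 for H4, against 0.83 over all genes. That all-gene value was 0.06 with the filter, so the 0.83 is largely set by low rows. Stray reads were higher in the libraries labelled shWtx than in the control, and their part in it was not tested. Single libraries moved the type medians. Without labelled shWtx replicate 1 they were -0.93 for H1, -0.023 for H2B and -0.82 for H3, with 1 H3 gene above 0, and without replicate 2 they were -0.086 for H1, -0.85 for H2B and -0.12 for H2A, and -0.68 over all 28. Without shTrim28 replicate 1 the H2A median was 0.22. Both libraries labelled shWtx lay below the control for 17 of the 28 and above it for 7, where the shares over all genes tested were 40.3% and 43.4%. Over the 60 genes, tested or not, both lay below for 34 and above for 15, against 22.1% and 45.1% of all entries with a count. These entries too include the low rows that did not pass the filter. None of the 6 H3 genes passed the test: Hist1h3d was at 59.4 and 89.4 CPM in the libraries labelled shWtx and 87.6 CPM in the control, Hist1h3e at 12.8 and 13.2 CPM against 26.1 CPM, and Hist1h3i at 15.5 and 10.2 CPM against 17.1 CPM. Without labelled shWtx replicate 2, Hist1h3f was called lower, with Hist1h2ao 1 of 2 members called, against 10.6% of all genes tested. Hist1h3f was at 0.539 and 15.9 CPM in the libraries labelled shWtx and 20.6 CPM in the control, so that call rests on a library with less than 1 estimated count.

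Other members lay below the control in both libraries labelled shWtx without passing the test. Hist1h2bj, an H2B gene, was at 13.8 and 6.17 CPM in the libraries labelled shWtx and at 35.1 CPM in the control, a log2 fold change of -1.72 (SE 0.63, edgeR adjusted p = 0.064). Its 6.17 CPM rests on 2.24 estimated counts. Hist2h4 was at 67.8 and 68.9 CPM in the libraries labelled shWtx and at 125 CPM in the control, a log2 fold change of -0.88 (SE 0.45, edgeR adjusted p = 0.188). For both, each library labelled shWtx lay under the control, and both passed the threshold when shTrim28 replicate 1 was left out, with Hist1h2ao and Hist1h4d the only 4 of 28, against 24.4% of all genes tested. In the other direction Hist1h2bc was at 49.1 and 51.5 CPM in the libraries labelled shWtx, again above the control's 26.4 CPM (log2 fold change 0.91, SE 0.44, edgeR adjusted p = 0.164). Hist1h2ae at 58.0 and 67.3 CPM and Hist1h4m at 97.8 and 107 CPM were also above their control values of 40.3 and 81.0 CPM. Linker histones did not move together: Hist1h1d was at 36.1 and 35.1 CPM in the libraries labelled shWtx against 28.26 CPM in the control, and Hist1h1c at 25.1 and 11.5 CPM against 27.2 CPM. For Hist1h1c the 11.5 CPM rests on 4.16 estimated counts.

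Between shTrim28 and the libraries labelled shWtx, which can be compared without the single control, 1 of the 28 passed the threshold and was higher in shTrim28, against 15.3% of all genes tested in either direction, 5.45% higher and 9.83% lower. The DESeq2 Wald test gave an adjusted p to 6 of the 28, Hist1h4d not among them, and called 0, against 10.3% of all genes it gave one, and 4 of the 28 (14.3%) had an unadjusted p under 0.05 in edgeR, against 30.9% of all genes tested. The gene past the threshold was Hist1h4d, at 33.6 and 32.2 CPM in shTrim28 and 12.9 and 11.7 CPM in the libraries labelled shWtx, a log2 fold change of 1.42 (SE 0.45, edgeR adjusted p = 0.034). All 4 libraries kept to their group for this gene, but the call was lost when shTrim28 replicate 2 (log2 fold change 1.43) or either library labelled shWtx (1.53 and 1.34) was left out, or when the stray level was subtracted (1.25). Hist1h2ao had a log2 fold change of 0.65 (edgeR adjusted p = 0.089), and it passed without shTrim28 replicate 1 (1.00). Hist1h4m also passed there (0.94), so that with Hist1h4d 3 of the 28 were called, against 25.7% of all genes tested. Hist1h1c, a linker histone gene with few shared windows, was at 41.1 and 38.3 CPM in shTrim28 and at 25.1 and 11.5 CPM in the libraries labelled shWtx, a log2 fold change of 0.97 (SE 0.41, edgeR adjusted p = 0.112). Its 11.5 CPM rests on 4.16 estimated counts.

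The members' median here was 0.46, against 0.02 over all genes tested and 0.38 over the tested genes with transcripts under 1000 bases. All 6 H3 and all 6 H4 genes tested had values above 0, with medians of 0.60 for each type, but without shTrim28 replicate 2 only 3 of 6 were above 0 in each, with medians of -0.031 for H3 and -0.081 for H4. Without labelled shWtx replicate 1, 4 of the 6 H3 genes were above 0. The medians were 0.68 for H1, 0.14 for H2B and -0.16 for H2A, and with 1 library left out they ranged over 0.31 to 1.21 for H1, -0.058 to 0.46 for H2B and -0.10 to 0.49 for H2A. The groups did not overlap, with shTrim28 higher, for 7 of the 28 and, with shTrim28 lower, for 1, Hist1h1d at 33.3 and 20.6 CPM in shTrim28 against 36.1 and 35.1 CPM in the libraries labelled shWtx. The shares over all genes tested were 28.4% and 27.3%. Hist1h1e, among the 7, and Hist1h2bg reached the cutoff of the test filter only in shTrim28, which favours higher values there. Hist1h2ak and Hist3h2a reached it only in a library labelled shWtx, which favours the other direction. The H3 and H4 genes tested each reached it in the control. Over the 60 genes the counts were 16 and 6, against 14.6% and 28.7% of all entries with a count, low rows that did not pass the filter included. Part of this rests on shTrim28 replicate 2: without it the members' median was 0.07 and 16 of the 28 were above 0, against 21 with it.

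**Figure D4:**
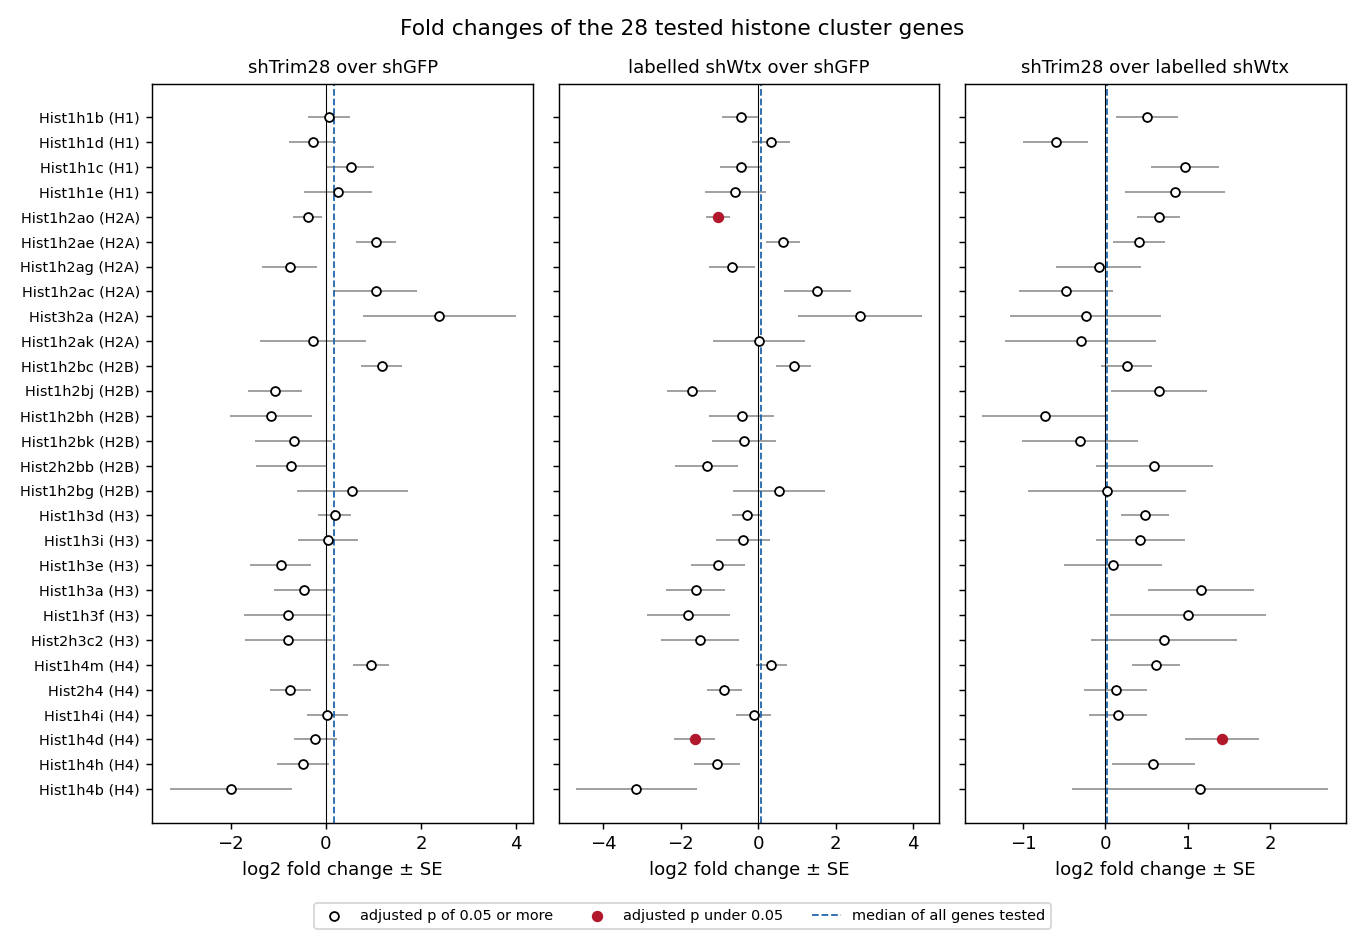
Log2 fold change with its SE (horizontal axis) of the 28 tested histone cluster genes in the 3 comparisons; filled red points have an edgeR adjusted p under 0.05 and the dashed line is the median of all genes tested. Hist1h2ao (-1.03) and Hist1h4d (-1.64) are filled in the middle panel and Hist1h4d (1.42) in the right panel, and the left panel has no filled point.

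Grouped by what the sequences hold rather than by histone type, the members had the following values, which are given without a test because the groups were drawn up with the values known. The 16 genes whose transcript ends within 100 bases after the stem-loop summed to 542 and 969.8 CPM in shTrim28, 475 and 568 CPM in the libraries labelled shWtx and 912 CPM in the control, and their 7 tested members, Hist1h2ao among them, had median log2 fold changes of -0.48 (shTrim28 over control), -1.03 (labelled shWtx over control) and 0.61 (shTrim28 over labelled shWtx). The 18 genes with over 100 annotated bases after the stem-loop summed to 350.4 and 424 CPM in shTrim28, 319 and 335 CPM in the libraries labelled shWtx and 369 CPM in the control, with medians of 0.18, -0.42 and 0.41 over 13 tested members. The 26 genes in which none of the 3 spellings was found had medians of -0.12, -0.42 and 0.34 over 8 tested members, the second like that of the genes with over 100 bases. These 26 need not lack a stem-loop. The 6 tested H2A and H2B genes with the octamer had medians of 0.80, 0.59 and -0.11 in the same 3 comparisons, and the 5 without it -0.76, -0.68 and -0.08. Hist1h2ae and Hist1h2bg, both among the 6, are neighbours and may share an octamer. Of those with the octamer, Hist3h2a had 0.72, Hist1h2ac 3.82 and Hist1h2bg 4.41 estimated counts in the control. These reached the cutoff of the test filter only outside the control, which favours values above it, and Hist2h2bb reached the cutoff only in the control. Among the 6 with the octamer, Hist1h2ac was at 19.7 and 14.2 CPM in shTrim28, 29.1 and 8.98 CPM in the libraries labelled shWtx and 6.84 CPM in the control, and no member of either set but Hist1h2ao passed a test.

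The replacement histones lie outside the clusters. With hairpins labelled shWtx 4 of 11 tested fell and none rose, where 4.94% of all genes tested fell, and the median log2 fold change was -0.82. Whether they differ from the cluster genes was not tested. H2afz, the H2A variant placed at promoters, fell to 457 and 442 CPM in the libraries labelled shWtx, against 929 CPM in the control (log2 fold change -1.05, SE 0.26, edgeR adjusted p = 0.007). H2afx, the variant phosphorylated at DNA breaks, fell to 82.1 and 108 CPM, against 204 CPM (-1.14, SE 0.32, edgeR adjusted p = 0.016). H3f3a, which encodes H3.3, fell to 337 and 344 CPM, against 603 CPM (-0.82, SE 0.26, edgeR adjusted p = 0.033), and H2afv, a second H2A.Z gene, to 53.1 and 62.3 CPM, against 117 CPM (-1.03, SE 0.34, edgeR adjusted p = 0.041). The calls of H2afx, H3f3a and H2afv were lost with only those groups fitted, with no filter and by the DESeq2 Wald test, and that of H2afz with no filter. Without labelled shWtx replicate 1 all 4 were lost, at -1.08 for H2afz, -0.93 for H2afx, -0.81 for H3f3a and -0.88 for H2afv. Without labelled shWtx replicate 2 those of H2afz (-1.01), H3f3a (-0.82) and H2afv (-1.14) were lost, and without shTrim28 replicate 2 those of H2afx (-1.15), H3f3a (-0.82) and H2afv (-1.03). With the stray level subtracted those of H3f3a (-0.69) and H2afv (-0.92) were lost, and with library totals that of H2afv (-0.98). In shTrim28 1 of 11 fell and none rose: H2afx was at 54.0 and 84.4 CPM, against 204 CPM in the control (-1.44, SE 0.31, edgeR adjusted p = 0.005), a call lost with no filter and without shTrim28 replicate 2 (-1.90), and the median was -0.34. Between shTrim28 and the libraries labelled shWtx none of the 11 passed, with a median of 0.27 and H3f3a at 0.50 (SE 0.22).

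**Figure D5:**
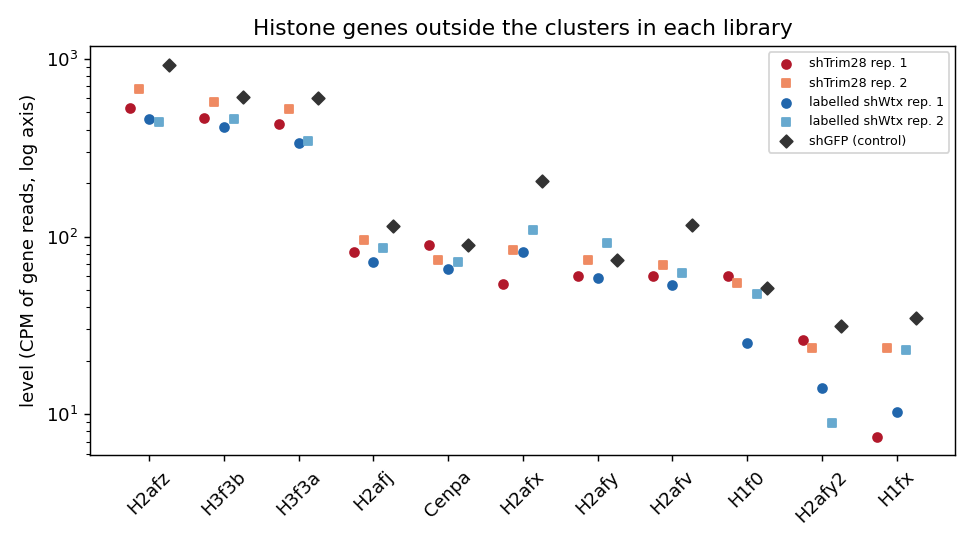
Level of the 11 tested histone genes outside the clusters (CPM of gene reads, log axis) in each library, ordered by level in shTrim28. For H2afz, H3f3a, H2afx and H2afv the control lies above the other 4 libraries, at 929, 603, 204 and 117 CPM. It also does so for H3f3b, H2afj, H2afy2, H1fx and, by a narrow margin, Cenpa, but not for H2afy and H1f0.

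Of 30 tested genes that transcribe or process histone mRNA, Ccne1, the cyclin that licenses histone gene transcription with Cdk2, fell to 78.5 and 75.5 CPM in shTrim28, against 211 CPM in the control (log2 fold change -1.45, SE 0.30, edgeR adjusted p = 0.003), and it was the only call there, against 6.53% of all genes tested. In the libraries labelled shWtx 1 rose and 3 fell, against 10.9% and 4.94% of all genes tested. Zfp473, a zinc finger protein of the U7 processing machinery, rose to 222 and 174 CPM in the libraries labelled shWtx, against 31.8 CPM in the control (2.63, SE 0.39, edgeR adjusted p = 1.98e-05). The 3 that fell, Snrpe (-0.89), Snrpf (-0.85) and Snrpg (-1.06), encode Sm ring proteins that serve the spliceosome as well as U7. Between shTrim28 and the libraries labelled shWtx 3 were lower and none higher, against 9.83% and 5.45% of all genes tested. They were Zfp473 (-1.48), the U7 component Lsm11 (-1.01) and Lsm1 (-1.24), which takes part in histone mRNA decay. Slbp did not pass in any comparison, at 179 and 191 CPM in shTrim28, 138 and 154 CPM in the libraries labelled shWtx and 213 CPM in the control, and neither did Npat, the coactivator of histone loci, at 57.6 and 46.6 CPM, 57.1 and 26.2 CPM and 33.0 CPM in the same order.

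Of 22 histone chaperones and their partners, 3 fell and none rose in shTrim28, where 2.26% of all genes tested fell, with a median log2 fold change of -0.41. Chaf1b, a subunit of the assembly factor CAF-1 that deposits new H3 and H4 at replication forks, fell to 42.1 and 37.4 CPM in shTrim28, against 154 CPM in the control (-1.97, SE 0.33, edgeR adjusted p = 0.0003). The others were Rbbp4, another CAF-1 subunit, at -0.91 and Hat1, which acetylates new H4, at -0.98. In the libraries labelled shWtx 7 fell and none rose, where 4.94% of all genes tested fell (median -0.60): Asf1b (-1.73), Ssrp1 (-1.16), Anp32e (-1.13), Mcm2 (-0.90), Rbbp4 (-0.84), Hat1 (-0.79) and Npm1 (-0.76). Between shTrim28 and the libraries labelled shWtx Ssrp1, a subunit of FACT, was higher (0.93) and Chaf1b lower (-1.31), against 5.45% higher and 9.83% lower over all genes tested.

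S phase genes, expressed when the cluster histones are needed, gave 6 lower and no higher calls of 40 in shTrim28, where 2.26% of all genes tested were lower, with a median of -0.57: Gins2 (-1.58), Rpa2 (-1.48), Ccne1 (-1.45), Pola2 (-1.13), Dut (-0.94) and Mcm5 (-0.91). In the libraries labelled shWtx 7 were lower, Rfc4 (-1.78), Gins2 (-1.54), Rpa2 (-1.27), Dut (-1.09), Tk1 (-1.05), Ccna2 (-0.95) and Mcm2 (-0.90), 1 was higher, Tyms (1.22), against 4.94% lower and 10.9% higher over all genes tested, and the median was -0.65. Between shTrim28 and the libraries labelled shWtx the median was -0.004 and Pola1 was the only call (-0.81), against 15.3% of all genes tested. Of the calls in the processing, chaperone and S phase lists, those of shTrim28 against control or against the libraries labelled shWtx were all lost without shTrim28 replicate 2. Those of labelled shWtx against control were lost without labelled shWtx replicate 1 for all but Zfp473, Ssrp1, Rpa2, Dut and Tyms. The summed level of the S phase list was 3274 and 3895 CPM in shTrim28, 3862 and 4221 CPM in the libraries labelled shWtx and 5656 CPM in the control, so that both shTrim28 libraries and both libraries labelled shWtx lay below the control, as they did not for the sum of the histone cluster genes. The stem cell markers, the fibroblast markers and the stray reads given above also differ between these libraries, and their part in the histone values was not tested, except that taking the stray level off each gene by its length left the log2 difference of the summed histone level in the libraries labelled shWtx at -0.58, against -0.55.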

How the data were processed

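RNA of 5 libraries was analysed from a table of estimated counts per gene that the authors deposited without scaling; per the labels, RefSeq was the target of alignment, and the submitters' processing notes name mm9. Not given in the sources used here are the aligner, the counting program, the use of strand and whether priming was on poly(A). The deposited table of repeat elements was not used. Estimated counts were rounded to whole numbers, filtered with filterByExpr and tested with edgeR 4.0.16 (R 4.3.3) by the quasi-likelihood test with TMM scaling on all 5 libraries in 3 groups, without covariates, with Benjamini-Hochberg adjustment over all 10878 genes tested and a threshold of 0.05, two-sided. The biological coefficient of variation was 0.168, with 2 residual degrees of freedom, and the single control was assumed to vary like the pairs. SEs are the size of the log2 fold change divided by the root of the F statistic. CPM are counts scaled to the effective library size. DESeq2 1.42.0 was an alternative, and its missing adjusted p-values were left missing. P-values measure the spread between hairpin libraries, which may be partly technical.

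Depth was 280614 to 1901563 counts a library, and intervals cover counting error only. Current symbols and promoters came from RefSeq (GRCm38.p6, all 60 genes matched by older symbol), and transcripts for shared windows and stem-loops from GENCODE vM21, matched for 59 genes. Members named are those past the threshold, the 3 with the highest level of each type, listed genes past the threshold and the hairpin targets. Hist1h2ac, Slbp, Npat, Hist1h3f, Hist1h4b, Hist2h3c2, Hist2h2bb, Hist1h1e, Hist1h2ak, Hist1h2bg, Hist3h2a and Hist3h2bb were named after their values were seen. The members and gene lists were chosen with earlier results of these data known. Tests were checked on simulated data.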

Additional observations from a re-analysis of the deposited data

How the results depend on the processing

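No paired analysis was possible because replicate numbers were given in accession order, the hairpins differ and the control is a single library. Without 1 library, calls among the 28 genes ranged over 0 to 2 (shTrim28 against control), 0 to 4 (labelled shWtx against control) and 0 to 3 (shTrim28 against labelled shWtx), and calls over all genes over 30 to 1072, 755 to 2650 and 0 to 2794. For those 3 comparisons in turn, all-gene calls were 710, 1721 and 1662, and became 261, 527 and 402 by the DESeq2 Wald test, which called 0 of the 4, 11 and 6 histone cluster genes it gave an adjusted p, and 319, 1143 and 912 with no filter. For labelled shWtx against control, 1 of the 60 was called with no filter (Hist1h4b, named after its value was seen), 0 of 28 and 827 of all with only those groups fitted, and 1 of 28 (Hist1h2ao) and 919 of all with chemoreceptor level subtracted. For shTrim28 against labelled shWtx the subtraction left 0 and 1065. With DESeq2 size factors the all-gene split for shTrim28 against control was 390 higher and 336 lower, and the all-gene median 0.06 in place of 0.16. The log2 difference of summed level for labelled shWtx against control was -0.33 without Hist1h2ao (chosen after seeing the data), and for shTrim28 against control it was 0.09 without replicate 1 and -0.54 without replicate 2.

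Signs turned only for genes that did not pass in the comparison named with all 5 libraries fitted. Among them is Hist1h4m, which passed for shTrim28 against labelled shWtx without shTrim28 replicate 1. For shTrim28 against control they turned with DESeq2 size factors and with only those groups fitted for Hist1h1b (-0.037 and -0.059), Hist1h3i (-0.061 and -0.074) and Hist1h4i (-0.067 and -0.071). Leaving out a library gave -0.91 to 0.21 for Hist1h1b, -0.56 to 0.19 for Hist1h1d, -2.03 to 0.14 for Hist1h2bh, -0.20 to 0.25 for Hist1h3d, -0.30 to 0.035 for Hist1h3i and -0.051 to 0.030 for Hist1h4i, each turned without shTrim28 replicate 2. For labelled shWtx against control it gave -0.55 to 0.0058 for Hist1h3d, and subtraction gave 0.020 for Hist1h4i. For shTrim28 against labelled shWtx, leaving out a library gave -0.32 to 0.70 for Fam123b, -0.47 to 0.74 for Hist1h1b, -0.37 to 0.66 for Hist1h2ae, -0.27 to 0.12 for Hist1h2ag, -1.52 to 0.56 for Hist1h2bh, -1.76 to 0.37 for Hist1h3e, -0.23 to 0.94 for Hist1h4m and -2.21 to 0.56 for Hist2h4, each turned without shTrim28 replicate 2. Subtraction gave -0.13 for Hist1h3e, -0.019 for Hist1h4i and -0.035 for Hist2h4, the Wald test -0.25 for Hist2h4, and no filter 0.19 for Hist1h2ag. For the named genes outside the clusters, the alternatives put a call below the threshold 25 times for shTrim28 against control, 120 times for labelled shWtx against control and 19 times for shTrim28 against labelled shWtx, and left it on its side 92, 119 and 58 times. The cause was not tested. Depth limits most members: 32 of 60 did not pass the filter for a test.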
